A study of Mus musculus with 10 samples.

Results

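Egr1, Egr2, Egr3, Nr4a1, Nr4a2, Nr4a3, Fos, Fosl2, Jun and Junb encode transcription factors that T cells induce when their antigen receptor is engaged. Each was measured by probe sets that name that gene and no other, and all 10 were among the 19048 genes present in both tables of array signals and among the 12485 bright enough to be tested. Transcripts were measured in CD3+ T cells taken from the spleen of Balb/c males at 12 weeks of age, after 4 days on plates coated with antibody to CD3 with antibody to CD28 in the medium. The KO group was 5 samples (KO1 to KO5) from mice without KLF13, a Krüppel-like zinc-finger protein that binds GC-rich and CACCC sequences and is best known in T cells for its action on Ccl5, a chemokine gene that they express late. The WT group was 5 samples from wild-type mice (WT1 to WT5) given the same stimulation. The labels number each sample as a mouse of its own, but they neither describe the knockout allele nor say in which cells KLF13 was lost. No unstimulated or earlier sample was used, so these values give the level on day 4 and not the induction. RNA per cell and the share of cells that express a gene cannot be told apart in such bulk samples.

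Engagement of the T cell receptor activates the kinase ERK and the phosphatase calcineurin, and the factors SRF, CREB, MEF2 and NFAT then switch on the genes described here soon after stimulation. Fos and Jun family proteins pair through leucine zippers to form AP-1, which binds beside NFAT at cytokine genes. Egr1 to Egr3 are zinc-finger proteins, of which Egr2 and Egr3 are known for restraining T cell activation, in part through Cblb and diacylglycerol kinases. Nr4a1 to Nr4a3 are orphan nuclear receptors; Nr4a1 is widely used as a reporter of receptor signal strength, and the family is known for its part in anergy, exhaustion and regulatory T cells.

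Promoters were set beside these values because the families are controlled by short sequence elements. RefSeq (GRCm38.p6) gave 12 promoter windows for 8 of the 10 genes, and the 250 bases before the start were searched on both strands. The half-site of the cyclic AMP response element, TGACG or its complement CGTCA, is bound by the CREB family. It occurred 4 times in each of the windows of Nr4a1, Nr4a2 and Nr4a3, 2 times in that of Fos and 1 time in that of Junb. The 5 windows of Egr2 held 0 to 2, and those of Fosl2 and Jun held 0. Of 32851 mouse windows of the same length, 17.8% held 1 or more half-sites and 0.137% (45 windows) held 4 or more. The cut of 4 equals the count in the windows of the 3 receptors, so the 0.137% is a description and no test. The windows of the 3 receptors are shown with the half-sites in capitals, beside those of Fosl2 and Jun, which lay lower in KO over all replicates. Egr2 also lay lower in KO over all replicates, and its windows, with 0 to 2 half-sites, are not shown. In replicates 4-5 the differences of Jun and Egr2 were -0.03 and -0.01 log2 units. Over all replicates none of the 10 genes had an adjusted p under 0.05 (limma). A link between half-sites and the genotype difference was not tested. The windows shown were chosen with the values known. They lie at chr15:101266596-101266845 on the plus strand (Nr4a1), chr2:57124004-57124253 on the minus strand (Nr4a2), chr4:48045055-48045304 on the plus strand (Nr4a3), chr5:32136222-32136471 on the plus strand (Fosl2) and chr4:95052223-95052472 on the minus strand (Jun), and each is written 5′ to 3′ along its gene.
Nr4a1: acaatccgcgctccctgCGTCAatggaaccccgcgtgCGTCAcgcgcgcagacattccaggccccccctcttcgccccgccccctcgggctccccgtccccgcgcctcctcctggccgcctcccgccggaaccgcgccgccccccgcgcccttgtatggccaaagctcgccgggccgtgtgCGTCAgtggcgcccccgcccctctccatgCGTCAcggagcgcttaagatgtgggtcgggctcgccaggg
Nr4a2: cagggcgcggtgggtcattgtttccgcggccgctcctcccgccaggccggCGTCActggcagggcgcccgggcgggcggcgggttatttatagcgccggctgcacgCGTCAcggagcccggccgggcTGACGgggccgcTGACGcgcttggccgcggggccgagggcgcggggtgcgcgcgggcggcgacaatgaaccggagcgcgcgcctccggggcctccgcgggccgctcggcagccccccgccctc
Nr4a3: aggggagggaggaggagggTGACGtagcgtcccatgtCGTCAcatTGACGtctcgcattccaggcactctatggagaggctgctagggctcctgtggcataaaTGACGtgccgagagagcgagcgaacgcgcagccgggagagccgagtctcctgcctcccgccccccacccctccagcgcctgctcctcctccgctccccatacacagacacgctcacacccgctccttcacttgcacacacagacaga
Fosl2: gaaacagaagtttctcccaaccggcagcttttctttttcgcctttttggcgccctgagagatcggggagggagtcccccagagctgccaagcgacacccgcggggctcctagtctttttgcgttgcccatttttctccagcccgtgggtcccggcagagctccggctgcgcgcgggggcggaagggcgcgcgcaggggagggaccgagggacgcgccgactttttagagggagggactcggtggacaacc
Jun: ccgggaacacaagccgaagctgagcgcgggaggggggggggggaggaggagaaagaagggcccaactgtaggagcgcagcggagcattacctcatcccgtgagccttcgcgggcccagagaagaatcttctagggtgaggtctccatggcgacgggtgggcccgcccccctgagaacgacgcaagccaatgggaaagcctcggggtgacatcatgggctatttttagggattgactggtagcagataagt
None of the 12 windows held the full response element TGACGTCA, which contains the half-site and occurred in 1.55% of all windows, the AP-1 site TGANTCA (6.75%) or the Nr4a response element AAAGGTCA (1.34%). The Egr site GCGNGGGCG occurred 1 time each in the windows of Nr4a1, Nr4a2 and Fosl2 and in 4.70% of all windows. The CArG box, bound by SRF, was in 4 of the 5 Egr2 windows and in 1.47% of all. The Egr2 windows that start at 67537619, 67537620 and 67537680 overlap, so 1 site can be counted in several of them. Of the elements bound by Krüppel-like and SP factors, the GC box GGGCGG, which can share letters with the Egr site, occurred 3 times for Nr4a1, 4 times for Nr4a2, 1 time each for Nr4a3, Fos, Fosl2 and Jun, 0 times for Junb and 0 to 4 times in the 5 Egr2 windows (32.7% of all windows held it). The CACCC box CCACCC occurred 1 time each for Nr4a3, Jun and Junb and in 2 overlapping windows of the 5 for Egr2 (28.1% of all windows). Such matches describe the letters of these windows and no binding was measured.

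All values are log2 signals after robust multi-array averaging (RMA), in which 1 unit is a doubling of signal, and they lay on 3 separate scales. Replicate 1 of each genotype had column medians of 5.21 to 5.23 in the exon-level table, replicates 2 and 3 had 6.25 to 6.43 in the same table, and replicates 4 and 5 had 4.18 to 4.30 in the gene-level table, so KO was compared with WT within each of these scale sets. KO3 stood apart, since its middle 50% of probe sets spanned 3.10 log2 units, where those of the remaining exon-level samples spanned 3.43 to 3.56. Across all tested genes the median absolute difference between KO2 and KO3 was 0.50, against 0.11 between WT2 and WT3. Klf13 itself was lower in every KO sample than in the WT samples of its scale set, with differences of -0.62, -0.81 and -1.05 in replicate 1, replicates 2-3 and replicates 4-5 (0.549-fold, adjusted p = 0.0126, limma). Whether its probe sets lie in the deleted part of the gene is not given. Its adjusted p was between 0.0507 and 0.0689 when KO4, KO5, WT2, WT3 or WT4 was left out, and 0.99984 with the table in place of the scale set as block. All 9 T cell markers measured were above background in every sample. Their mean log2 signal was 9.74 to 9.88 in KO2 and KO3 against 10.64 to 10.65 in WT2 and WT3, 9.36 in KO1 against 9.59 in WT1, and 9.97 to 10.04 in KO4 and KO5 against 9.85 to 10.04 in WT4 and WT5. B cell markers averaged 5.31 to 5.43 in KO2 and KO3 against 5.18 to 5.23 in WT2 and WT3, with 3 to 4 of 9 above background. In the same samples myeloid and dendritic markers averaged 5.15 to 5.35 in KO against 5.04 to 5.08 in WT, NK cell markers 4.80 to 5.06 in KO against 4.82 to 4.84 in WT, and stromal and endothelial markers 5.91 to 6.12 in KO against 5.75 to 5.85 in WT. Over all samples 2 to 4 of 9 B cell, 3 to 5 of 10 myeloid and dendritic, 2 of 6 NK cell and 5 to 6 of 8 stromal and endothelial markers were above background. The median KO minus WT difference of all tested genes was -0.22 in replicates 2-3, against -0.02 in replicate 1 and -0.01 in replicates 4-5. Quantile normalization brought the median of replicates 2-3 to -0.06 and subtraction of array medians brought it to -0.12. The part of these shifts in the results below was not tested.

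**Figure D1:**
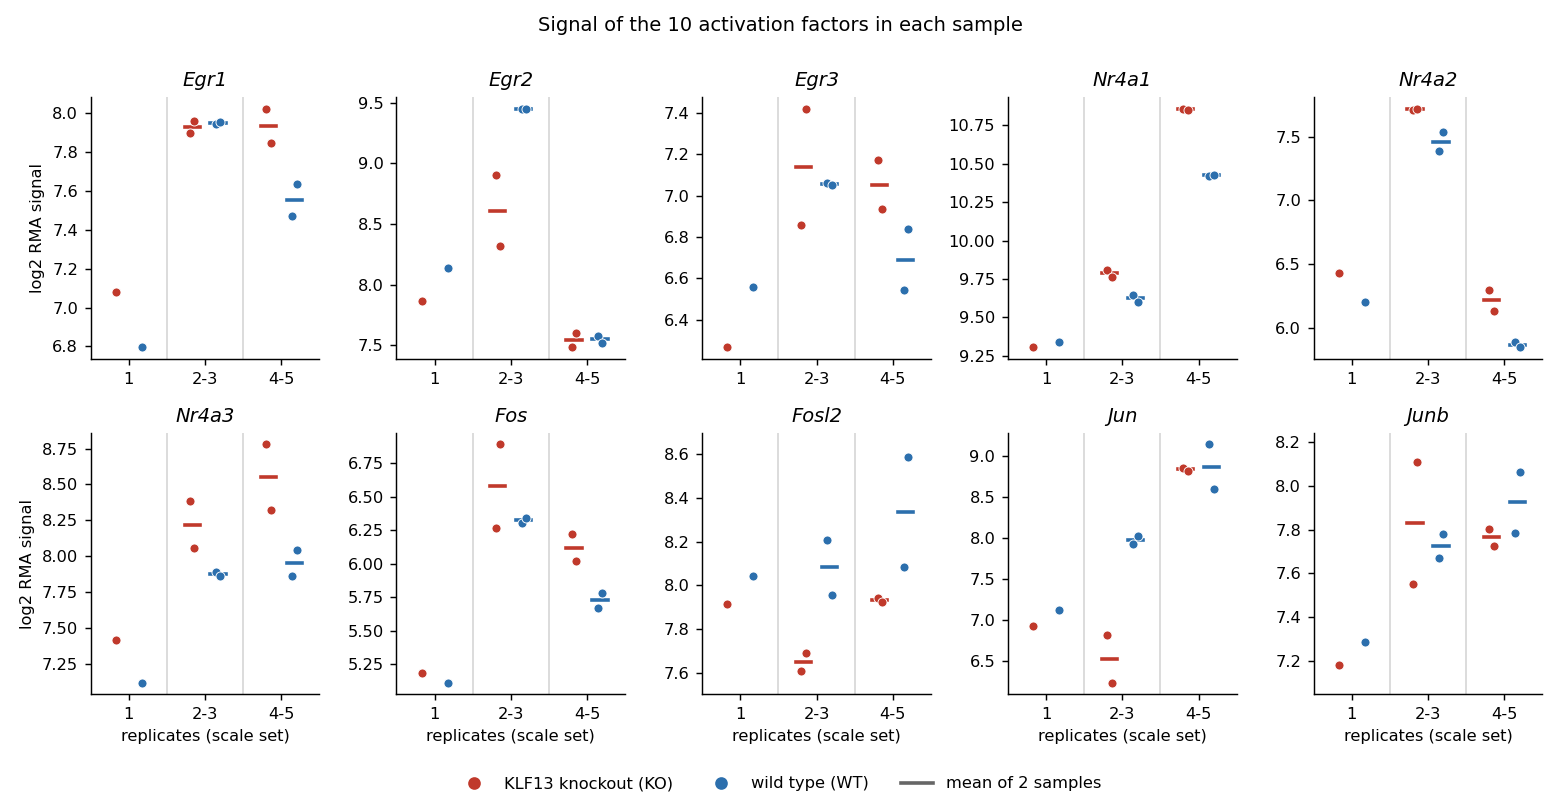
Log2 RMA signal of the 10 genes in each sample (vertical axis, a scale of its own for each gene) by scale set (horizontal axis), with KO samples in red left of WT samples in blue and a bar for the mean of 2 samples. Nr4a2 and Nr4a3 lay higher in KO and Fosl2 lower in KO in each of the 3 scale sets without overlap, and the Jun gap lay in replicates 2-3, where KO was at 6.82 and 6.23 and WT at 7.92 and 8.02.

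With the scale sets as a block in a limma fit over all genes, 0 of the 10 genes passed the adjusted p threshold of 0.05, while 0.585% of tested genes did (73 of 12485, 12 higher and 61 lower in KO). Before adjustment, 5 of 10 had a p under 0.05, with Nr4a2 and Nr4a3 higher and Egr2, Fosl2 and Jun lower in KO, against 14.9% of tested genes. The fitted difference was above 0 for 6 of 10 and for 36.5% of tested genes. Its median over the 10 was 0.16, against -0.10 over all tested genes. KO and WT did not overlap in any of the scale sets, in the same direction, for 2 genes higher in KO (1.63% of tested genes) and for 1 gene lower in KO (10.8%). All 10 were above the 95th percentile of 964 olfactory receptor genes, which stand for background here, in 10 of 10 samples. Signals of different probe sets are not comparable, so the levels of these genes are not ranked against each other.

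**Figure D2:**
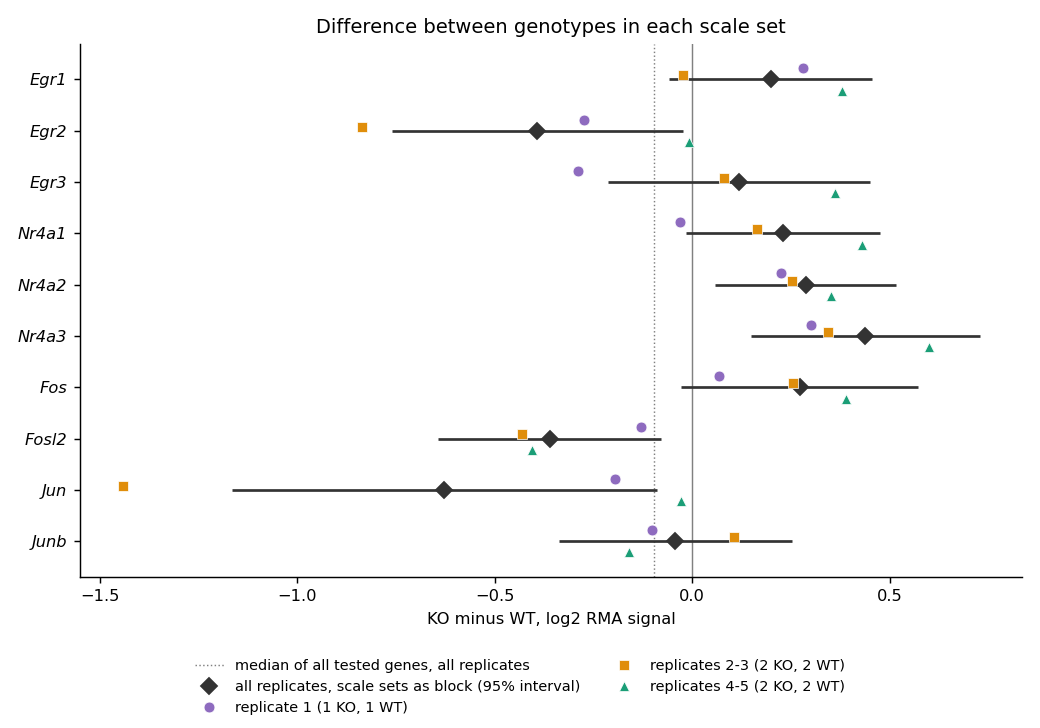
KO minus WT difference in log2 RMA signal (horizontal axis) for each gene (vertical axis), fitted over all replicates with its 95% interval (diamond and line) and within each scale set (circles, squares and triangles); the dotted line is the median of all tested genes, at -0.10. The intervals of Nr4a2, Nr4a3, Egr2, Fosl2 and Jun exclude 0 before adjustment over genes, and the 3 scale sets lie close together for Nr4a2 and far apart for Jun and Egr2.

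The Nr4a receptors lay on the higher side in KO cells. Nr4a3 was at 7.42 in KO1, 8.39 and 8.05 in KO2 and KO3, with 8.78 and 8.32 in KO4 and KO5, against 7.12 in WT1, 7.89 and 7.86 in WT2 and WT3, with 7.86 and 8.04 in WT4 and WT5. Each of the 5 KO samples thus exceeded every WT sample of its own scale set. Over all replicates the difference was 0.44 ± 0.13 log2 units (SE, 5 KO and 5 WT samples), a 1.35-fold level with a 95% interval of 1.11 to 1.66, and it had an adjusted p of 0.206. Without KO3 the difference was 0.50 with an adjusted p of 0.0285, where 2.9% of tested genes passed. With array weights, which gave KO3 a weight of 0.0559 and the other samples 0.434 to 5.27, it was 0.49 with an adjusted p of 0.0193, where 4.04% passed.

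Nr4a2 was at 6.43 in KO1, 7.71 and 7.72 in KO2 and KO3, with 6.30 and 6.13 in KO4 and KO5, against 6.21 in WT1, 7.38 and 7.54 in WT2 and WT3, with 5.88 and 5.85 in WT4 and WT5. KO and WT did not overlap here either, and the differences of 0.22, 0.25 and 0.35 in replicate 1, replicates 2-3 and replicates 4-5 had a narrow range. The values of replicates 2-3 were means over 13 probe sets that differed among themselves. In 1 of the 13, KO2 and KO3 both exceeded both WT samples. In another, KO2 was at 7.24 and KO3 at 10.61, against 8.11 and 7.57 in WT2 and WT3. In the fit over all samples it differed by 0.29 ± 0.10 (1.22-fold, 95% interval 1.04 to 1.43) with an adjusted p of 0.261, and 0.29 with an adjusted p of 0.0862 without KO3. Nr4a1, the receptor used as a reporter of signal strength, was at 9.31 in KO1, 9.81 and 9.76 in KO2 and KO3, with 10.86 and 10.85 in KO4 and KO5, against 9.34 in WT1, 9.65 and 9.60 in WT2 and WT3, with 10.42 in both WT4 and WT5. It was higher in KO without overlap in replicates 2-3 and in replicates 4-5, and differed by -0.03 in replicate 1. In replicates 2-3, KO2 and KO3 both exceeded both WT samples in 3 of its 8 probe sets and lay below them in 1. In another probe set KO3 was at 10.28 and KO2 at 8.74, against 9.16 and 9.01 in WT2 and WT3. The fitted difference was 0.23 ± 0.11 (1.17-fold, 95% interval 0.990 to 1.39) with an adjusted p of 0.357. All 3 receptors kept a positive difference as deposited, with quantile normalization (0.37, 0.37 and 0.55 for Nr4a1, Nr4a2 and Nr4a3) and with array medians subtracted (0.26, 0.31 and 0.46).

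The 3 Egr factors differed in sign and size. Egr2, a brake on T cell activation, was at 7.87 in KO1, 8.90 and 8.32 in KO2 and KO3, with 7.49 and 7.60 in KO4 and KO5, against 8.14 in WT1, 9.45 in both WT2 and WT3, and 7.58 and 7.52 in WT4 and WT5. KO was lower without overlap in replicates 1 to 3, and KO and WT overlapped in replicates 4-5, where the difference was -0.01. Over all replicates the difference was -0.39 ± 0.17 (0.762-fold, 95% interval 0.590 to 0.984) with an adjusted p of 0.311, and -0.23 with an adjusted p of 0.228 without KO3. Against the median of all genes in replicates 2-3, the Egr2 difference there was -0.62 in place of -0.84. The T cell markers had a median difference of -0.75 in the same set, and its part in the Egr2 gap was not tested.

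Egr1, an early gene induced through ERK and SRF, was at 7.08 in KO1, 7.90 and 7.96 in KO2 and KO3, with 8.02 and 7.84 in KO4 and KO5, against 6.80 in WT1, 7.94 and 7.95 in WT2 and WT3, with 7.47 and 7.63 in WT4 and WT5. KO was higher in replicate 1 and without overlap in replicates 4-5, and the genotypes overlapped in replicates 2-3. The fitted difference was 0.20 ± 0.12 (1.15-fold, 95% interval 0.961 to 1.37, adjusted p = 0.422). Egr3, which shares with Egr2 a role in T cell tolerance, was at 6.27 in KO1, 6.86 and 7.42 in KO2 and KO3, with 7.17 and 6.93 in KO4 and KO5, against 6.56 in WT1, 7.06 and 7.05 in WT2 and WT3, with 6.54 and 6.84 in WT4 and WT5. It was lower in KO in replicate 1, straddled WT in replicates 2-3 and was higher in KO in replicates 4-5. In the fit over all samples it differed by 0.12 ± 0.15 (1.09-fold, 95% interval 0.863 to 1.37, adjusted p = 0.662).

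The Fos-type partners of AP-1 lay in opposite directions. Fosl2, a Fos relative that lacks the strong activation domain of Fos, was at 7.91 in KO1, 7.61 and 7.69 in KO2 and KO3, with 7.94 and 7.92 in KO4 and KO5, against 8.04 in WT1, 8.21 and 7.96 in WT2 and WT3, with 8.08 and 8.59 in WT4 and WT5. Every KO sample lay below the WT samples of its scale set. The fitted difference was -0.36 ± 0.13 (0.779-fold, 95% interval 0.640 to 0.947) with an adjusted p of 0.257, and -0.36 with an adjusted p of 0.109 without KO3. Fos was at 5.18 in KO1, 6.27 and 6.89 in KO2 and KO3, with 6.22 and 6.02 in KO4 and KO5, against 5.11 in WT1, 6.30 and 6.34 in WT2 and WT3, with 5.67 and 5.78 in WT4 and WT5. KO2 lay below both WT samples and KO3 above both, while KO4 and KO5 lay above WT4 and WT5. Over all replicates the difference was 0.27 ± 0.14 (1.21-fold, 95% interval 0.981 to 1.49, adjusted p = 0.368), and 0.18 with an adjusted p of 0.364 without KO3.

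Jun, the main partner of Fos in AP-1, had the widest gap of the 10 genes and the least even one. It was at 6.92 in KO1, 6.82 and 6.23 in KO2 and KO3, with 8.85 and 8.82 in KO4 and KO5, against 7.12 in WT1, 7.92 and 8.02 in WT2 and WT3, with 9.14 and 8.59 in WT4 and WT5. KO2 and KO3 were far below WT2 and WT3, KO1 was slightly below WT1, and KO4 and KO5 lay between WT4 and WT5. The differences were -0.20 in replicate 1, -1.44 in replicates 2-3 and -0.03 in replicates 4-5. The difference in replicates 2-3 was -1.22 against the median of all genes, -1.29 with quantile normalization, -1.34 with array medians subtracted and -1.15 without KO3. The median of the T cell markers in that set was -0.75, and its part in the Jun gap was not tested. Over all replicates it was -0.63 ± 0.25 (0.647-fold, 95% interval 0.446 to 0.940, adjusted p = 0.282), and -0.41 with an adjusted p of 0.222 without KO3. Junb, a Jun relative that takes part in Il4 expression in Th2 cells, was at 7.18 in KO1, 7.55 and 8.11 in KO2 and KO3, with 7.80 and 7.73 in KO4 and KO5, against 7.28 in WT1, 7.67 and 7.78 in WT2 and WT3, with 7.79 and 8.06 in WT4 and WT5. KO and WT overlapped in both sets with more than 1 sample, and the fitted difference of -0.04 ± 0.14 (95% interval of the fold 0.791 to 1.19, adjusted p = 0.857) took the opposite sign with quantile normalization (0.04).

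Taking each scale set alone, 4 of the 10 genes were higher and 6 lower in KO1 than in WT1, where 46.5% of tested genes were higher and where 1 sample a genotype allows no test. In replicates 2-3 alone, 3 were higher in KO without overlap (Nr4a1, Nr4a2 and Nr4a3, 11.7% of tested genes) and 3 lower (Egr2, Fosl2 and Jun, 43.1%). In that set 0 genes of any kind passed the adjusted threshold (0% of 12485, limma). Before adjustment, Egr2 and Jun had a p under 0.05, as did 9.52% of tested genes. In replicates 4-5 alone, 6 were higher in KO without overlap (Egr1, Egr3, Nr4a1, Nr4a2, Nr4a3 and Fos, 20.3% of tested genes) and 1 lower (Fosl2, 26%). Before adjustment these 7 genes had a p under 0.05, as did 16% of tested genes. None of the 10 passed after adjustment in this set, where 2.72% of tested genes did (339 of 12485, limma). Nr4a3 was at 1.52-fold there (adjusted p = 0.104), Nr4a1 at 1.35-fold (0.107), Fos at 1.31-fold (0.174), Egr1 at 1.30-fold (0.190), Nr4a2 at 1.28-fold (0.204), Egr3 at 1.28-fold (0.277) and Fosl2 at 0.755-fold (0.281). The median difference of the 10 genes was 0.36 in replicates 4-5, 0.09 in replicates 2-3 and -0.07 in replicate 1. Leaving out 1 sample moved the Nr4a3 call in replicates 4-5, which passed without KO5 (0.83, adjusted p = 0.0234), and the Fosl2 call, which passed without WT4 (-0.66, adjusted p = 0.0416).

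Whether a genotype difference itself differed between the tables was tested with an interaction term. For Jun the difference in replicates 4-5 exceeded that in replicates 1 to 3 by 1.00 ± 0.42 log2 units (SE, 10 samples, adjusted p = 0.872). Egr2 followed with 0.64 ± 0.30 (adjusted p = 0.872). No tested gene passed (0% of 12485, limma), and before adjustment 1 of the 10 genes (Jun) had a p under 0.05, as did 5.27% of tested genes. The 95% interval of the interaction ran from 0.06 to 1.94 for Jun and from -0.37 to 0.59 for Nr4a2, which includes 0.

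**Figure D3:**
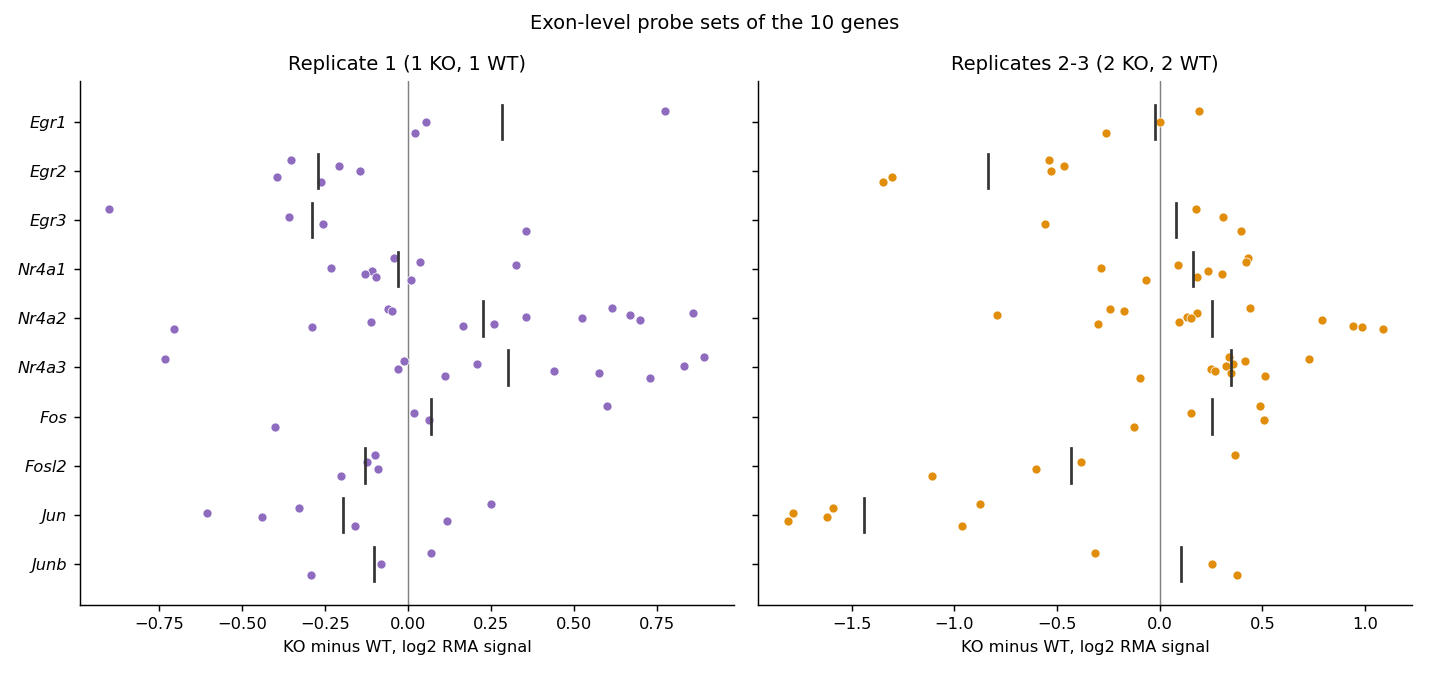
KO minus WT difference in log2 RMA signal (horizontal axis) of each exon-level probe set of the 10 genes (vertical axis), in replicate 1 (left) and replicates 2-3 (right), with a bar for the mean over a gene's probe sets. All 6 Jun and all 5 Egr2 probe sets lie left of 0 in replicates 2-3, and 9 of 10 Nr4a3 probe sets lie right of it.

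The exon-level table measured the 10 genes with 60 probe sets along their transcripts, and those of 1 gene share their samples. The labels name a labelling kit primed at the 3' end, which is not the usual one for such probe sets, so how evenly they report along a transcript is not known. All 6 Jun probe sets were lower in KO in replicates 2-3 (-1.81 to -0.87 log2 units), and both KO samples lay below both WT samples in 6 of 6, as in 36.1% of the probe sets of all tested genes. In replicate 1, 4 of the 6 were lower. All 5 Egr2 probe sets were lower in both sets, with differences of -0.40 to -0.15 in replicate 1 and of -1.35 to -0.47 in replicates 2-3. Both KO samples lay below both WT samples in 3 of the 5, and in 1 of the other Egr2 probe sets KO2 (10.48) lay above WT2 and WT3 (10.05 and 10.03).

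For the Nr4a genes, 9 of 10 Nr4a3 probe sets were higher in KO in replicates 2-3 (-0.10 to 0.73) and 7 of 10 in replicate 1 (-0.73 to 0.89). Both KO samples lay above both WT samples in 6 of the 10, as in 9.84% of the probe sets of all tested genes. Nr4a2 was less even, with 9 of 13 higher in replicates 2-3 and 8 of 13 in replicate 1, over ranges of -0.79 to 1.09 and -0.71 to 0.86, and KO2 and KO3 both exceeded both WT samples in 1 of 13. Nr4a1 had 6 of 8 higher in replicates 2-3 and 3 of 8 in replicate 1, and KO2 and KO3 both exceeded both WT samples in 3 of 8. Of the 4 Fosl2 probe sets, 4 were lower in replicate 1 and 3 in replicates 2-3. Over all 60 probe sets, the median absolute difference between KO2 and KO3 was 0.63 against 0.12 between WT2 and WT3, and KO2 and KO3 lay on opposite sides of the WT samples in 28.3%, against 22.8% of the 153047 probe sets of all tested genes.

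Genes around these factors were then counted by role. Among 11 other AP-1 proteins, 1 fell and none rose past the threshold. Batf, which pairs with Jun proteins and IRF4 and is needed for helper T cell effector programmes, was at 8.19 in KO1, 8.65 and 8.05 in KO2 and KO3, with 8.02 and 8.23 in KO4 and KO5, against 9.01 in WT1, 9.56 and 9.89 in WT2 and WT3, with 9.36 and 9.14 in WT4 and WT5. Every KO sample lay below the WT samples of its scale set by a wide gap. It fell by 1.16 ± 0.15 (0.446-fold, adjusted p = 0.00827). This call was lost without KO4 (adjusted p = 0.0505), without WT4 (0.0512) and with the table in place of the scale set as block (0.466). The list's median was 0.04, against -0.10 for all tested genes.

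None of 5 Egr and Nr4a relatives and partners passed (median 0.01). The smallest p was that of Rxra, a nuclear receptor that pairs with Nr4a1 and Nr4a2 (-0.28, adjusted p = 0.343). Of 20 other early response genes, 0 passed, with 1 above 0, against 36.5% of tested genes, and a median of -0.22. In replicates 2-3 that median was -0.55, where the median of all tested genes was -0.22 and that of the T cell markers -0.75. Ier5, a stress-responsive early gene, had the smallest p (-0.59 ± 0.12, adjusted p = 0.0545). Of 16 upstream kinases, phosphatases and factors, 0 passed and 13 were below 0 (median -0.16). Crem, which encodes CREB-family modulators, was at -0.54 (adjusted p = 0.272). Its level in replicates 4-5 alone fell by 0.77 (adjusted p = 0.0424).

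Target genes were counted in the same way. Of 14 genes reported as targets of Egr or Nr4a factors, 0 passed over all replicates, with 6 above and 8 below 0 (median -0.06). Tox, a nuclear factor of persistently stimulated T cells, was at 0.59 ± 0.15 (adjusted p = 0.152) over all replicates and rose by 1.06 in replicates 4-5 (adjusted p = 0.00465). In replicates 2-3 Tox differed by 0.21 (adjusted p = 0.610, limma). Without KO3 it passed over all replicates too (0.68, adjusted p = 0.0148). Ikzf2, a factor of regulatory T cells named here after its value was seen, rose by 0.72 in replicates 4-5 (adjusted p = 0.0279). It was at 0.12 in replicates 2-3 (adjusted p = 0.778) and at 0.42 over all replicates (adjusted p = 0.244, limma). Below 0, and also named after their values were seen, were Havcr2 and the diacylglycerol kinase gene Dgka. Havcr2 was at -0.83 over all replicates (adjusted p = 0.169, limma) and -1.13 in replicates 4-5 (adjusted p = 0.0899). Its signal in KO was near background. KO1 (3.95) and KO3 (4.80) lay under their olfactory 95th percentiles of 3.99 and 5.58, and KO2 (5.51) lay above its own of 5.17. KO4 and KO5, at 3.94 and 3.83, lay little above theirs of 3.61 and 3.69. WT4 lay far above WT5 (4.42), so the -1.13 rests in large part on 1 sample. Dgka was at -0.84 over all replicates (adjusted p = 0.247), with -1.90 in replicates 2-3 and 0.04 in replicates 4-5. Of 13 AP-1 and NFAT target genes, 3 fell and none rose, where 0.585% of tested genes passed in either direction. The difference was above 0 for 2 of the 13, against 36.5% of tested genes, and the median was -0.45. That median was -0.65 in replicates 2-3 and -0.24 in replicates 4-5, where the T cell markers were at -0.75 and 0.02. Il2ra, the high-affinity chain of the interleukin-2 receptor, was at 10.18 in KO1, 10.44 and 10.31 in KO2 and KO3, with 9.79 and 9.51 in KO4 and KO5, against 10.89 in WT1, 12.03 and 12.04 in WT2 and WT3, with 10.21 and 10.56 in WT4 and WT5. KO was lower without overlap in each set, and Il2ra fell by 1.10 ± 0.18 (0.466-fold, adjusted p = 0.0275). The costimulatory receptor gene Icos fell by 0.83 ± 0.13 (0.563-fold, adjusted p = 0.0205), and Il4, the Th2 cytokine gene, by 0.89 ± 0.17 (0.538-fold, adjusted p = 0.0470). The Il4 difference was -1.28 in replicate 1, -1.18 in replicates 2-3 and -0.41 in replicates 4-5 (adjusted p = 0.218, limma, in replicates 4-5). In replicates 4-5 its signal was low, at 3.94 and 3.87 in KO and 4.52 and 4.12 in WT. The olfactory 95th percentiles there were 3.61 to 3.76. Leaving out 1 sample ended the calls of Il2ra, Icos and Il4 in several cases. Il2ra had an adjusted p of 0.0510 to 0.114 without KO1, KO4, KO5, WT1, WT2, WT3 or WT5. Icos had 0.0539 to 0.108 without KO1, KO4, KO5 or any 1 WT sample, and Il4 had 0.0707 to 0.181 without KO1, KO2, KO4, KO5, WT1, WT2, WT3 or WT4. With the median of exon-level probe sets the adjusted p was 0.0650 for Il2ra, 0.0765 for Icos and 0.0820 for Il4. With the table as block it was 0.632 for Il2ra and 0.99984 for Icos and Il4, and without a filter it was 0.0574 for Il4. None of 7 heat shock genes passed, with 6 below 0. Their median was -0.32 over all replicates and -0.81 in replicates 2-3, and Hsp90aa1, a cytosolic chaperone gene, had the smallest p (-0.66, adjusted p = 0.168).

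**Figure D4:**
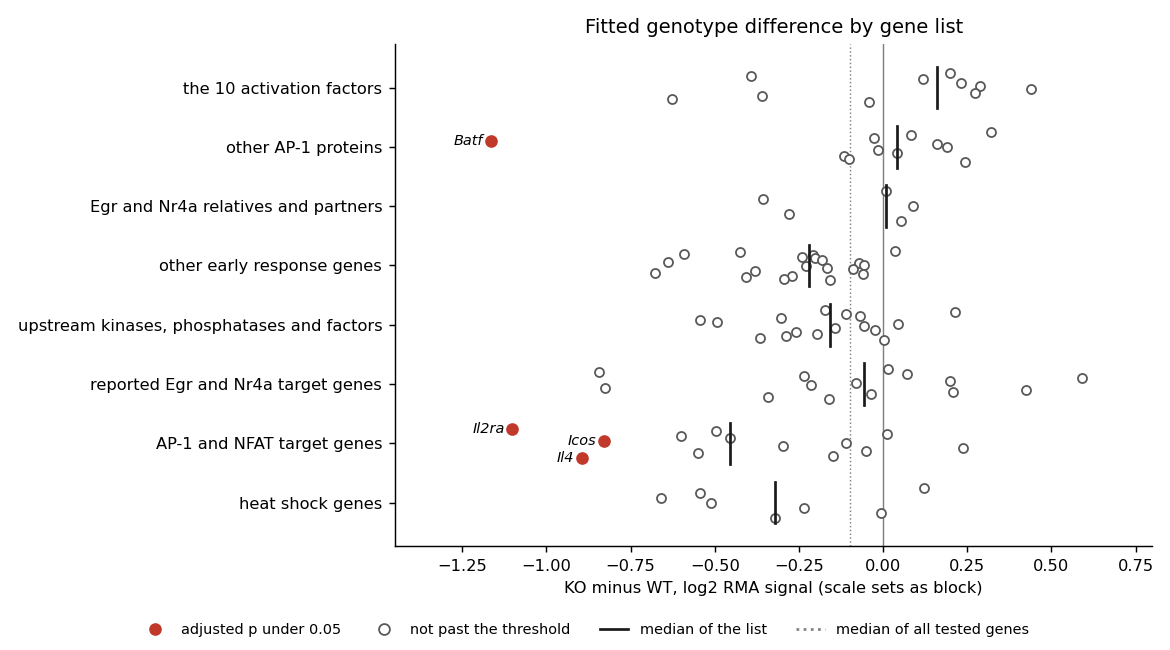
Fitted KO minus WT difference in log2 RMA signal over all replicates (horizontal axis) of each tested gene in the 10 activation factors and 7 related gene lists (vertical axis), with filled points for an adjusted p under 0.05, a bar for each list's median and a dotted line for the median of all tested genes. Batf, Icos, Il2ra and Il4 are the 4 filled points and all lie left of 0; the median of the 10 activation factors is 0.16 and that of the AP-1 and NFAT target genes -0.45.

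The genes whose values ran most like those of Nr4a3, the member of smallest p, were sought over the 10 samples after each value was set relative to the mean of its scale set. Pearson's r was 0.970 for Klf9, a Krüppel-like factor related to KLF13, 0.941 for Hdgfl3, 0.939 for Dhdh, 0.925 for Lmo4, a LIM-domain regulator, and 0.920 for Heg1. These 5 are the highest of all tested genes, the samples share genotype and scale set, and the r is a description. Klf9 was at 5.52 in KO1, 6.84 and 6.71 in KO2 and KO3, with 6.14 and 5.84 in KO4 and KO5, against 5.40 in WT1, 6.48 and 6.60 in WT2 and WT3, with 5.49 and 5.65 in WT4 and WT5. KO exceeded WT in each set without overlap, by a fitted 0.29 (adjusted p = 0.293). Of the 5 genes, Hdgfl3 alone passed over all replicates (0.60 ± 0.12, 1.52-fold, adjusted p = 0.0470), where 0.585% of tested genes passed. Its adjusted p was 0.0733 to 0.181 when KO1, KO2, KO4, KO5 or any 1 WT sample was left out. Nr4a3 itself lay higher in KO in each set, so a choice by likeness to it favours genes higher in KO. The differences of these 5 genes are thus no separate support for those of Nr4a3.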

How the data were processed

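Transcripts were measured on Affymetrix arrays in 5 KO and 5 WT samples. The deposited values are log2 signals that the authors made with RMA, per the submitters' processing notes; the sources used here give neither its version nor any further step. RNA was labelled from an oligo(dT) primer with a 3' IVT Express kit, per the labels' protocols, a kit not usual for arrays with exon-level probe sets; which labelling was used for these arrays is not settled here. Replicates 1 to 3 of both genotypes were in an exon-level table (241576 probe sets, 212097 naming 1 gene) and replicates 4 and 5 in a gene-level table (35556 and 21789). Whether all exon-level columns were normalized together is not given. The tables were normalized separately, so levels were compared within a scale set.

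From these values, a gene's exon-level signal was taken as the mean log2 over its probe sets and its gene-level signal as that of its brightest probe set. Those naming several genes or no gene were dropped, and symbols were updated through the RefSeq table of GRCm38.p6 (2742 and 19 symbols). Of 19048 genes in both tables, 12485 were tested, those not under the 30th percentile of mean signal in either table. The main comparison was KO minus WT with the 3 scale sets as a fixed block, made with lmFit and eBayes of limma 3.58.1 under R 4.3.3. Tests were 2-sided, and the threshold was 0.05 on p-values adjusted by Benjamini-Hochberg. Replicates 2-3 and replicates 4-5 were also fitted alone, and a term for genotype by table was tested over all samples. The scripts were tested on simulated data. P-values measure the spread between these samples. The number of arrays limits the precision.

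The members, lists, scale sets, motifs and tests were chosen with earlier results of these data known. The text names the 10 genes, Klf13, up to 3 passing genes of each list or else its gene of smallest p, and the 5 genes most like the member of smallest p. Ikzf2, Havcr2 and Dgka were named outside this rule, after their values were seen. The lists hold genes known for these roles. Counts cover the listed genes that were tested, and Il2 and Rnf128 were too dim to be. For Il2 this held in the gene-level table alone, where its mean percentile was 29.6, against 61.3 in the exon-level table. Replicate numbers were not used to pair samples in the main comparison. Deviations of same-numbered KO and WT samples correlated at -0.42 in replicates 2-3 and -0.24 in replicates 4-5. With 2 samples per genotype in a set, crossed numbers must give the same size with the opposite sign. These correlations thus cannot tell whether the numbers pair samples. Alternatives changed the scaling, the summary of probe sets, the filter, the block, the weights and the samples.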

Additional observations from a re-analysis of the deposited data

Results flagged for a closer look

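Within each genotype, the 5 samples of each of the 10 genes were checked for 1 sample far from the others, after each value was set relative to the mean of its scale set. Of 20 groups checked, 3 held such a sample. The usual chance rate of about 1 in 20 groups holds for independent values of like spread. Here each value was set relative to a mean over both genotypes, so KO1 and WT1 mirror each other, and that rate need not apply. Egr2 was at -0.71 in KO3, below the other KO samples, which lay between -0.14 and 0.05. Nr4a2 was at 0.26 in KO4, above the other KO samples at 0.09 to 0.13. Nr4a3 was at -0.39 in WT4, below the other WT samples at -0.21 to -0.15. KO3 is the sample with the narrow signal range, and KO4 and WT4 share the gene-level table.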

How the results depend on the processing

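None of the 10 genes passed over all replicates in the settings tried, apart from Nr4a3 with array weights and without KO3 (1 gene each). Leaving out 1 sample gave 0 to 1 of the 10 genes and 12 to 362 genes in all, lowest without KO4 and highest without KO3. The count of 73 genes in all became 4 with the table as block, 31 with the median of exon-level probe sets, 23 with the replicate block, 504 with array weights and 37 with median and quantile normalization together, the last chosen after seeing the data. With quantile normalization it was 64 (14 higher, 50 lower in KO) and with array medians subtracted 95 (15 higher, 80 lower). In replicates 4-5 alone, 339 became 517 with a trended, robust eBayes and 660 with the replicate block, where 2 and 1 of the 10 genes passed, and 193 to 529 when 1 sample was left out, where 0 to 1 passed. In replicates 2-3 alone, 0 became 85 with the replicate block (1 of the 10, Jun, adjusted p = 0.0281), and 1 to 9608 when 1 sample was left out (0 to 6 of the 10). Those last fits took their spread from 1 pair of samples, with 9608 genes without KO2 and 2499 without KO3. The interaction called 0 to 121 genes when 1 sample was left out. Replicate numbers were also crossed, an alternative chosen after seeing the data, which called 376 genes (1 of the 10) in replicates 2-3 and 938 (2 of the 10) in replicates 4-5. The replicate block over all replicates ended the calls of Icos (adjusted p = 0.0547), Il2ra (0.0639), Il4 (0.09995) and Hdgfl3 (0.123), and changed no call of the 10 genes.

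Signs turned for small differences. Junb over all replicates became 0.040 with quantile normalization, 0.0073 with the median of probe sets and 0.13 with both, and ran from -0.15 to 0.020 when 1 sample was left out (above 0 without KO2 or WT5). In replicates 4-5, Egr2 became 0.032 with quantile normalization and ran from -0.064 to 0.050 when 1 sample was left out (above 0 without KO4 or WT4). Jun there became 0.019 with quantile normalization and ran from -0.30 to 0.24 (above 0 without WT4). In replicates 2-3, Egr1 became 0.17 with quantile normalization and 0.078 with array medians subtracted, and ran from -0.052 to 0.0072 when 1 sample was left out (above 0 without KO2). In the same set Egr3 ran from -0.20 to 0.36, Fos from -0.055 to 0.57 and Junb from -0.17 to 0.38, each below 0 without KO3 and highest without KO2. The Fosl2 interaction ran from -0.33 to 0.18, above 0 without KO1, WT1 or WT5. The cause of these changes was not tested. The differences over all replicates of the other 9 genes kept their sign in all 21 alternatives.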
